A study of Homo sapiens with 18 samples.

Results

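Potassium channel genes were taken as the protein-coding genes of GENCODE on chromosomes 1 to 22 whose symbol is KCN, 1 or more letters and a number, which gave 93 of 19111 genes. Peaks were assigned to a gene when they shared at least 1 bp with its body or with the 10 kb on either side of it, and this stretch is called the window of the gene. ChIP-seq, which sequences the DNA bound to an immunoprecipitated protein, was carried out in HEK293T cells, a transformed human line derived from embryonic kidney, with antibodies against H3K27ac and CTCF. Cells were untreated (CTRL) or had received 1 mM valproic acid (VPA) over 1 day, and each of the 4 groups had 3 replicate libraries. VPA is an antiepileptic drug that inhibits histone deacetylases, and the comparison asks where acetylation and CTCF binding at these genes differed with it. The labels do not say whether the replicates came from separate cultures. The p-values therefore refer to these libraries only, and differences between libraries of a group may be technical.

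Potassium channels let potassium ions leave or enter the cell and so set its resting potential and end its action potentials. Separate gene families encode voltage-gated pore subunits (KCNA to KCND, KCNQ and KCNH) and silent subunits that only work in mixed channels (KCNF, KCNG, KCNS and KCNV). Others encode channels opened by calcium or sodium (KCNMA, KCNN and KCNT), inward rectifiers (KCNJ) and 2-pore leak channels (KCNK). The pH-sensitive KCNU1 was grouped with the channels opened by calcium or sodium. Auxiliary subunits (KCNAB, KCNE, KCNIP and KCNMB) bind to the pore subunits and tune them. Acetylation of histone H3 at lysine 27 (H3K27ac) marks active promoters and enhancers, and CTCF binds DNA and helps to fold it into loops. Many of these genes serve neurons, heart muscle or glands, and kidney cells use others to move salt.

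The H3K27ac lists held 26299 to 29799 peaks in CTRL and 38441 to 40992 in VPA, and the CTCF lists 36469 to 58782. Read totals are unknown, so depth cannot be given. Replicate 1 stood apart from the other replicates: where all 6 libraries had a peak, its median fold enrichment (the signal at the peak summit over the local background, as computed by the peak caller) was 7.63 in CTRL and 7.52 in VPA for H3K27ac, against 15.3 to 17.2 in the others. At the members the H3K27ac difference was larger than over the whole lists. CTRL replicate 1 had 58.0% of the mean H3K27ac peak number of CTRL replicates 2 and 3 in their windows, against 88.6% over all peaks. For CTCF the median fold enrichment of replicate 1 was 15.0 in CTRL and 12.4 in VPA, against 42.5 to 45.3 in the others. The CTCF peak number of CTRL replicate 1 was 72.0% of that mean at the members and 69.0% over all peaks. Of genes known to be active in this line, LHX1, VIM and NEFM had a promoter H3K27ac peak in all 6 libraries, NES in 5 and PAX2 in 0, and genes of liver, blood and pancreas (ALB, PTPRC, CD3E, INS and HBB) had none.

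The sequences shown first are among those at which the lists of CTRL and VPA parted completely, with a peak in 3 of 3 libraries of a treatment and in 0 of 3 of the other. They are 151-base windows around the H3K27ac summit, read from hg38 on the strand of the gene, 5′ to 3′. The window of KCNMA1 had a peak only in CTRL and the rest only in VPA.
KCNMA1, intron, chr10:77306033-77306183 (−): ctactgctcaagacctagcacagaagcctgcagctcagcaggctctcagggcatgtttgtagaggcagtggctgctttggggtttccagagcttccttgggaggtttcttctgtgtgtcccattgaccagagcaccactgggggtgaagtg
KCNC1, intron, chr11:17738396-17738546 (+): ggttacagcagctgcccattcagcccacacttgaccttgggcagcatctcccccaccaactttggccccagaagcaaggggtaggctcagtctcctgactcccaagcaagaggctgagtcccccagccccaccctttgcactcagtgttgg
KCNK15, upstream of the gene, chr20:44738789-44738939 (+): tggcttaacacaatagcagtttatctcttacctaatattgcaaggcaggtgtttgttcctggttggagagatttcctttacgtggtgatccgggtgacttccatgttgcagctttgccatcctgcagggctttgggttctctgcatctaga
KCNK15, intron, chr20:44747414-44747564 (+): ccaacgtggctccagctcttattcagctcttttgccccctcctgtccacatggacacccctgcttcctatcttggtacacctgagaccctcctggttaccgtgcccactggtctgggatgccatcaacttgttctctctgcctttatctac
Their GC content ran from 46.4% at the upstream window of KCNK15 to 60.3% at KCNC1, and the median over all H3K27ac regions was 54.3%. Of the 6 pieces of 25 bases in each window shown, all 6 occurred once on chromosomes 1 to 22. None of these windows held the CTCF core letters CCANNAGNNGGC or the AP-1 letters TGANTCA on either strand, which were present in 0.937% and 3.65% of the same windows of all 55382 H3K27ac regions. A match is a run of letters only, and no match says nothing about a factor.

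The next set shows CTCF sites, 61 bases centred on the match to CCANNAGNNGGC nearest to the summit, with the match in capitals, on the strand of the match. KCNJ6 held a region only in CTRL. KCNK18, KCNJ9 and KCNIP1 held CTCF regions with such a match that were present in all 6 libraries, leaving out untranslated exons. These regions were the most highly ranked of those considered, which did not cover every member. The region of KCNQ1 that was only in CTRL had no match within the 151 bases around its summit, and its middle 61 bases are given for comparison.
KCNJ6, intron, chr21:37873835-37873895 (−): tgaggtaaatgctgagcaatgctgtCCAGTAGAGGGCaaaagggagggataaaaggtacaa
KCNQ1, intron, chr11:2694032-2694092 (+): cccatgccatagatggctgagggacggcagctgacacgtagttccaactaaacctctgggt
KCNK18, flank, chr10:117216747-117216807 (+): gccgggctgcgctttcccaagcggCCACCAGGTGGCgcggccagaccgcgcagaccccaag
KCNJ9, inside the gene, chr1:160085765-160085825 (+): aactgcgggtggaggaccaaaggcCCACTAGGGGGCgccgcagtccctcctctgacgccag
KCNIP1, inside the gene, chr5:170435149-170435209 (+): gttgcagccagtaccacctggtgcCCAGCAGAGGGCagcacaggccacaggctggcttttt
The letters were present in 67 of 439 CTCF regions at the members (15.3%) and in 16.3% of all 69985 CTCF regions. Among regions shared by all 6 libraries they were present in 24.0% of the members' 196 and in 25.3% of all.

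H3K27ac peaks in the members' windows were more numerous in VPA. CTRL replicates 1, 2 and 3 held 67, 115 and 116 of them, and the VPA replicates 109, 148 and 153. VPA exceeded CTRL by 42, 33 and 37 peaks within the replicate numbers, but VPA replicate 1 lay below CTRL replicates 2 and 3, so the groups overlapped. CTRL averaged 99.3 ± 28.0 peaks and VPA 137 ± 24.1 (SD, n = 3), a ratio of 1.38 beside 1.40 for the whole lists. No p-value is given for a sum over the members. The ratio was 1.63 within replicate 1, 1.29 within replicate 2 and 1.32 within replicate 3, and with all lists cut to the length of the shortest one it was 1.03.

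Promoter peaks (within 1 kb of the gene's start) were 20, 34 and 33 in CTRL and 25, 39 and 39 in VPA, a ratio of 1.18. Intragenic peaks, in the gene body but not at that promoter, were 26, 49 and 53 in CTRL and 53, 69 and 69 in VPA, a ratio of 1.49, and flanking peaks had a ratio of 1.40. Over the windows of all genes the ratios were 1.04 at promoters, 1.58 in gene bodies and 1.78 in flanks. With lists of equal length the ratio at the members was 1.02 at promoters and 0.955 in gene bodies, so their order turned round.

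**Figure D1:**
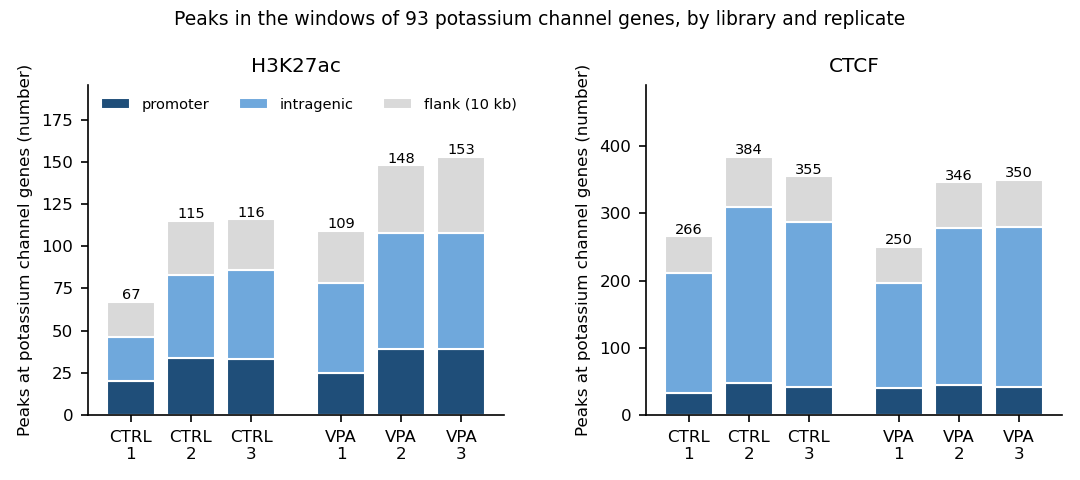
Number of H3K27ac (left) and CTCF (right) peaks in the windows of 93 potassium channel genes, 1 bar per library, split by colour into promoter, intragenic and flanking peaks. The H3K27ac bars reach 67, 115 and 116 in CTRL and 109, 148 and 153 in VPA, while the CTCF bars differ more by replicate than by treatment.

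H3K27ac peaks were sparser at the members than over all genes, and were sparse at other ion channel genes too. The median window was 68.8 kb at members, against 47.9 kb over all genes, and peaks per Mb were not adjusted for length. It was 138 kb at sodium and 139 kb at calcium channel genes. The members' windows held 6.61 ± 1.86 peaks per Mb in CTRL and 9.10 ± 1.60 in VPA, against 16.2 ± 0.986 and 22.0 ± 0.666 over the windows of all genes (SD, n = 3, each base counted once). A promoter peak in all 6 libraries was found at 20 of 93 members, against 58.1% of all genes, 42.9% of 14 sodium channel genes, 36.0% of 25 calcium channel genes and 1 of 4 HCN pacemaker genes. Among the 20 were the voltage-gated KCNB2, KCNC1, KCNC4 and KCNQ5, and KCNG1 and KCNG3 of 10 silent subunits. Of the 8 channels opened by calcium or sodium, with KCNU1 counted among these, KCNT2 was included. Also included were KCNJ2, KCNJ3, KCNJ4, KCNJ6, KCNJ8, KCNJ11 and KCNJ12 of 16 inward rectifiers. Further ones were KCNK1 and KCNK5 of 15 2-pore channels, and KCNAB2 and KCNMB4 of 15 auxiliary subunits. None of the 8 KCNH genes was among the 20. In every library of replicates 2 and 3, a promoter peak was found at 28 members and at 11945 of all 19111 genes. The 28 held 2 KCNH genes, KCNH2 and KCNH3. Reads of KCNJ12 may be shared with its near-identical paralog KCNJ18, so the value of KCNJ12 is uncertain. In all, 67 members (72.0%) had an H3K27ac peak in some library, against 83.9% of all genes. The other 26 had none, among them KCNQ3, a subunit of the neuronal M current. KCNK2, a mechanically gated leak channel, and KCNA1, a neuronal voltage-gated channel, also had none. The promoter was taken from the gene record, so a start used inside a long gene counts as intragenic, as it did in 14 of 105 intragenic regions.

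**Figure D2:**
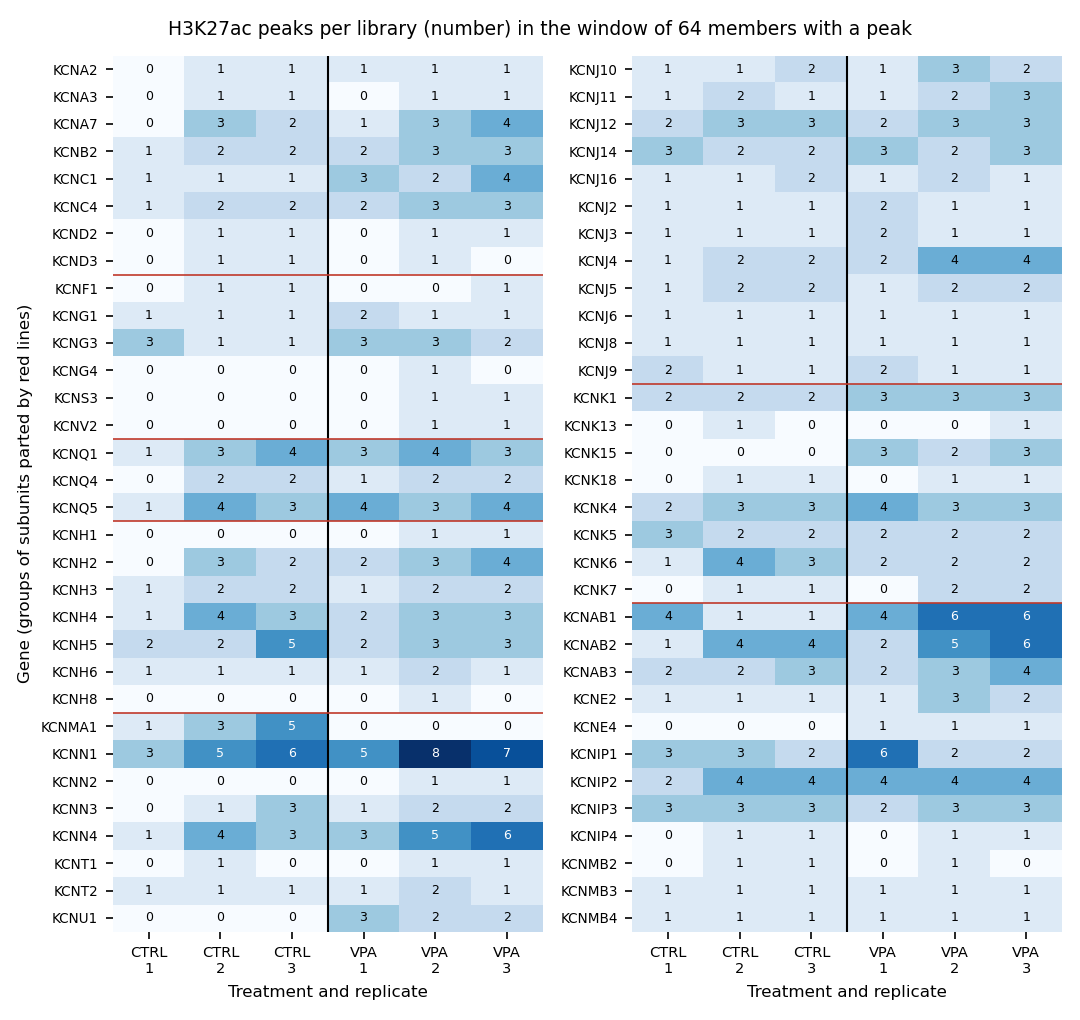
Number of H3K27ac peaks in the window of 64 members with a peak, as rows ordered by subunit family, in the 3 CTRL and 3 VPA libraries as columns. KCNMA1 is the row with peaks in CTRL and 0 in VPA, and KCNU1 and KCNK15 are rows with 0 in CTRL and 2 or 3 in VPA.

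The peak numbers of a gene in CTRL and VPA did not overlap at 6 members, with more peaks in VPA at 5 (KCNK15, KCNU1, KCNC1, KCNK1 and KCNE4) and fewer at 1 (KCNMA1). Over all genes 10.2% had more peaks in VPA without overlap and 0.147% had fewer. The members' counts of 5 and 1 are small, their difference from these shares was not tested, and nothing particular to the members is read from them. The exact permutation test of each of these genes gave p = 0.1 (two-sided), the smallest that 3 against 3 libraries allow, and no gene can pass a threshold of 0.05. In gene bodies alone 3 members were higher (6.36% of all genes) and 1 was lower (0.152%), and at promoters no member was (0.288% of all genes higher). Counted by means, 44 members had more H3K27ac peaks in VPA, 8 had fewer and 41 had equal numbers, where 54.2% of all genes had more and 7.86% fewer.

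KCNMA1 encodes the pore of the large-conductance channel opened by calcium and voltage, and spans 769 kb (chr10:76869601-77638369, minus strand). CTRL replicates 1, 2 and 3 had 1, 3 and 5 H3K27ac peaks there, and each VPA library had 0. The peaks made up 5 regions, 4 of them in introns 332 to 398 kb downstream of the gene's start and 1 at its promoter. Only the intronic region at chr10:77305524-77306354 was present in all 3 CTRL libraries, with a fold enrichment of 7.13, 2.45 and 3.60 in replicates 1, 2 and 3. Its peaks ranked at the 39.8th, 6.41th and 17.4th percentile of their lists by q-value, so they were weak peaks in replicates 2 and 3. The window still had 0 peaks in VPA and at least 1 in CTRL with lists of equal length (mean difference −1.67 peaks, against −3.00 with the full lists), although no single region was then present in all 3 CTRL lists. In the same window CTCF had 9, 20 and 22 peaks under CTRL and 15, 21 and 20 under VPA, which overlapped between the treatments.

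KCNU1, a pH-sensitive channel of sperm, had 0 H3K27ac peaks in each CTRL library and 3, 2 and 2 in VPA. The one region that VPA alone held was intronic, 96.3 kb downstream of the gene's start, at chr8:36879540-36881731, with a fold enrichment of 5.56, 5.59 and 6.29 in VPA replicates 1, 2 and 3. This was the member region only in VPA with the highest ranks, at the 43.3th, 55.3th and 53.3th percentile of the VPA lists. It was also the one that was still called when all lists had equal length. No promoter peak was found at KCNU1 in any library.

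KCNC1, a voltage-gated channel of fast-firing neurons, had a promoter peak in all 6 libraries. Its H3K27ac peak number was 1 in each CTRL library and 3, 2 and 4 in VPA replicates 1, 2 and 3. The region only in VPA lay 3.70 kb downstream of the start, in an intron at chr11:17737313-17739296, with a fold enrichment of 2.20, 4.23 and 4.32. At the promoter region the fold enrichment was 5.02, 15.1 and 18.3 in CTRL and 6.05, 15.7 and 17.7 in VPA, which overlapped.

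KCNK15, a 2-pore family subunit not known to conduct by itself, lacked H3K27ac peaks in every CTRL library and had 3, 2 and 3 under VPA. It was the only member with a pair of regions only in VPA, a flanking one at chr20:44738330-44739229, 7.0 kb upstream of the start, and an intronic one at chr20:44747306-44747947. The fold enrichment was 2.23, 3.36 and 3.06 at the first and 2.75, 3.61 and 2.52 at the second in VPA replicates 1, 2 and 3. The intronic region shared bases with a CTCF region that was present in all 6 libraries and touched the start of the antisense RNA gene KCNK15-AS1. With lists of equal length the peak numbers of KCNK15 overlapped between CTRL and VPA.

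KCNIP2, which encodes a calcium-binding partner of the KCND channels, had H3K27ac peak numbers of 2, 4 and 4 in CTRL and of 4 in each VPA library. An intronic region of it was only in VPA, with a fold enrichment of 3.17, 2.74 and 2.84. Its summit lay in repeated sequence, where 4 of 6 pieces of 25 bases occurred once, so reads there are hard to place. KCNK1, a leak channel found in kidney, had 2 peaks in each CTRL library and 3 in each VPA library, but the added peak lay at a different place in each of the VPA libraries. KCNE4, a single-span subunit that inhibits some voltage-gated channels, had 0 peaks in each CTRL and 1 in each VPA library, in an intron in replicate 1 and beyond the gene's end in replicates 2 and 3. With lists of equal length, or with the gene body alone, the peak numbers of both KCNK1 and KCNE4 overlapped between CTRL and VPA, and those of KCNE4 also overlapped at a −log10 q-value cut of 3 and with 50 kb either side.

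**Figure D3:**
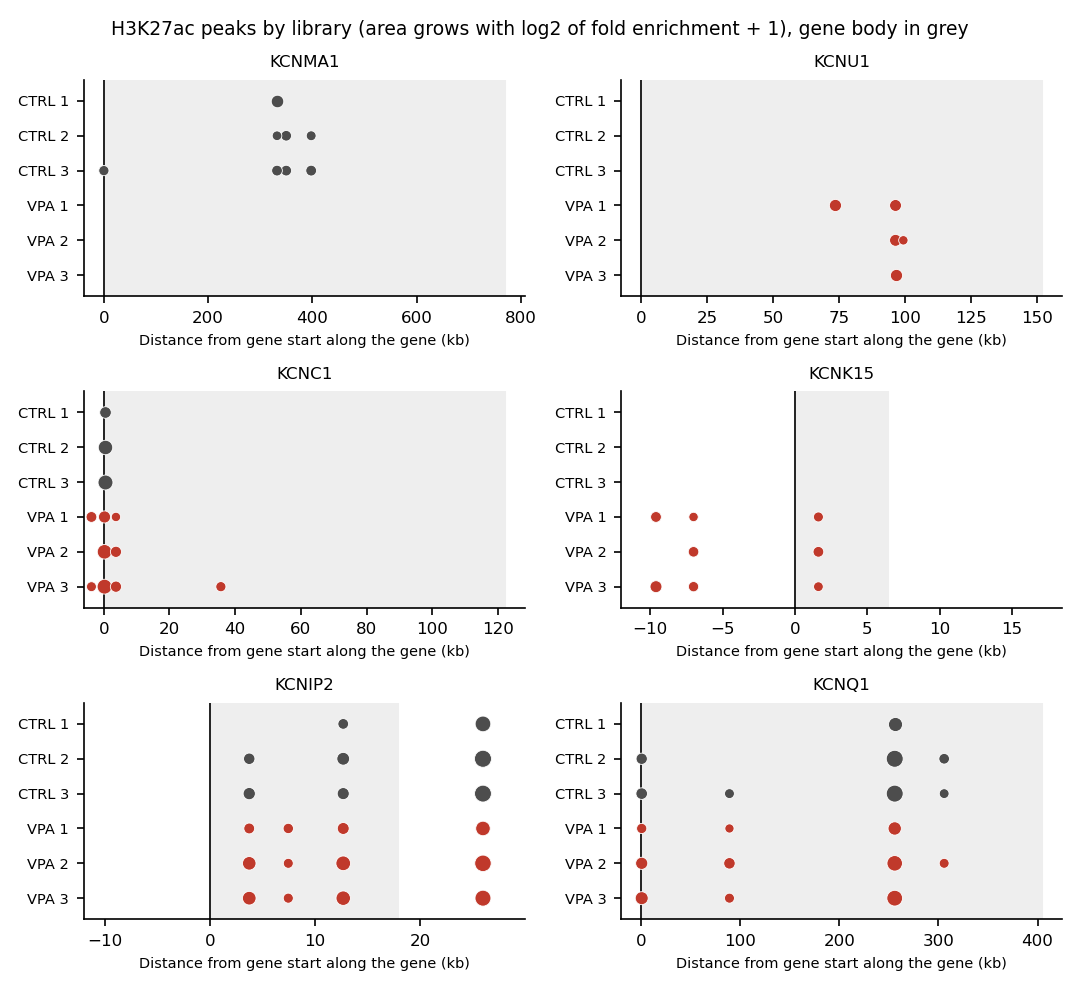
Position of each H3K27ac peak region along 6 members, as the distance of its summit from the gene's start in kb (x axis), with 1 row per library, CTRL in grey and VPA in red, larger points for higher fold enrichment and the gene body shaded. KCNMA1 has points in the CTRL rows only, KCNU1 and KCNK15 in the VPA rows only, and at KCNQ1 the point near 256 kb is in all 6 rows.

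Merging the peaks of the 6 libraries wherever they shared a base gave 194 H3K27ac regions at the members, of which 57 were shared by all 6 libraries (33.2% of all regions). Of the 194, 6 had a peak in all 3 VPA and no CTRL libraries, and 1 the reverse. The background over all 55382 regions was 4.12% for VPA alone and 0.139% for CTRL alone, beside 3.09% and 0.515% at the members. Neither difference was tested, and with counts of 6 and 1 no departure from the background is read from them. Of the 6, 5 were intragenic and 1 was flanking, and none lay at a promoter. Of all 194 member regions 41 lay at a promoter, so nothing is read from the positions of 6. The counts moved with single libraries. Regions only in VPA numbered 24 without VPA replicate 1 (11.2% of all regions) and 10 without VPA replicate 2 (6.11%), and with lists of equal length only that of KCNU1 was left (1.47%). Regions only in CTRL numbered 3 without CTRL replicate 1 (0.628% of all), each of them in KCNMA1, 2 without CTRL replicate 2 (0.230%), in KCNMA1 and KCNH5, and 0 with lists of equal length (0.688%).

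The fold enrichment itself was compared at the 57 member regions shared by all 6 libraries, as log2 values after subtraction of each library's median. limma, with Benjamini-Hochberg adjustment over all 18407 such regions, called none of them at an adjusted p under 0.05, and the smallest adjusted p was 0.603. At an unadjusted p under 0.05 there were 5 member regions of 57, and 1474 (8.01%) in all. With the replicate number as a block limma called 8 of 57 member regions, 5 higher in VPA (6.45% of all regions) and 3 lower (8.57%). That is 8.77% and 5.26% of the members' regions. Those described here were singled out after their values had been seen.

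KCNIP2 held a region that rose. At chr10:101828901-101831916, an internal transcript start, the fold enrichment was 3.58, 7.80 and 5.91 in CTRL replicates 1, 2 and 3 and 5.58, 16.5 and 14.9 in VPA (log2 difference 1.10 ± 0.23 SE, limma adjusted p = 0.00648 with the replicate block and 0.603 without it), and the groups overlapped through replicate 1. At the promoter of KCNK5, an alkaline-activated leak channel of kidney tubules, it was 2.79, 8.60 and 7.76 in CTRL and 3.66, 11.5 and 18.2 in VPA (0.77 ± 0.24, adjusted p = 0.0407). A further region that rose lay 4.18 kb upstream of KCNK6, at the promoter of YIF1B (0.69 ± 0.21, adjusted p = 0.0356). The adjusted p-values of KCNK5 and KCNK6 are from limma with the replicate block, and neither region passed without it.

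The 3 regions that fell had high enrichment in CTRL. At KCNQ1, the cardiac and epithelial delayed rectifier, the region chr11:2698004-2701339 lies in an intron at the start of KCNQ1OT1, the antisense RNA of the imprinted domain there. Its fold enrichment was 13.0, 44.6 and 44.1 in CTRL replicates 1, 2 and 3 and 9.55, 23.3 and 25.9 in VPA (−0.63 ± 0.19, adjusted p = 0.0304 with the block and 0.612 without it). At the promoter of KCNB2, a neuronal delayed rectifier, it was 9.20, 26.8 and 26.9 in CTRL and 6.90, 10.7 and 18.3 in VPA (−0.68 ± 0.21, adjusted p = 0.0377). The last was a region in the flank of the leak channel gene KCNK4, at the promoter of ESRRA (−0.64 ± 0.19, adjusted p = 0.0342). The adjusted p-values of KCNB2 and KCNK4 are likewise from limma with the block, and neither region passed without it. In each of these regions VPA was lower within each replicate number. After quantile normalization the log2 difference was −0.24 at KCNK4 and −0.39 at KCNQ1, and neither these nor KCNB2 passed the threshold with the block (adjusted p = 0.605, 0.298 and 0.128).

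**Figure D4:**
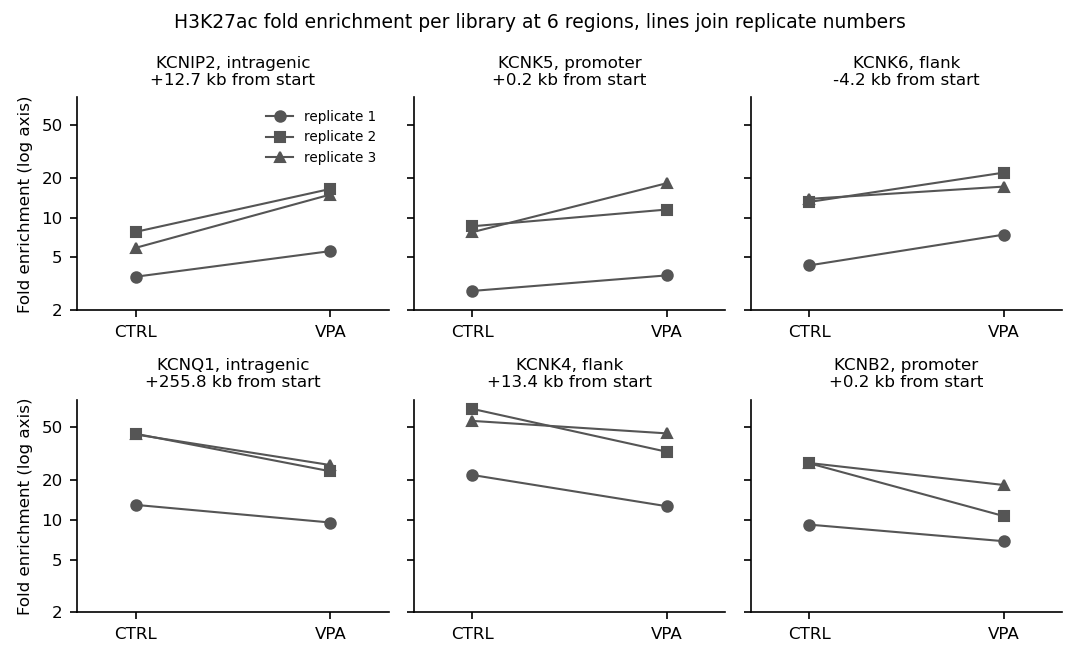
H3K27ac fold enrichment over local background (log axis) in CTRL and VPA at 6 of the member regions called with the replicate block, with lines joining libraries of the same replicate number. Lines rise in 3 regions and fall in 3, and replicate 1 is the lowest point of each treatment in every panel.

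The count of 8 depended on the replicates and on the scaling. In fits with the block it was 5 without replicate 1 of both treatments (9.21% of all regions called), 3 without replicate 2 (12.5%) and 8 without replicate 3 (11.8%), and it was 2 after quantile normalization (2.74%). The region of KCNIP2 was past the threshold in all 7 fits with the block. It was among the 2 after quantile normalization, so those of KCNK5 and KCNK6 did not both pass there. Over the 57 regions the median log2 difference was −0.01, against −0.05 over all 18407. By class the medians were −0.12 at 21 promoter regions, 0.29 at 18 intragenic regions and −0.01 at 18 flanking regions. Over all regions the medians were −0.18 at 9423 regions touching a promoter and 0.12 at the 8984 others. These classes are not alike, since the promoter of any gene counted here and only the member's own promoter above. Of all 48 flanking H3K27ac regions at the members, 18 lay at the promoter of another gene.

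**Figure D5:**
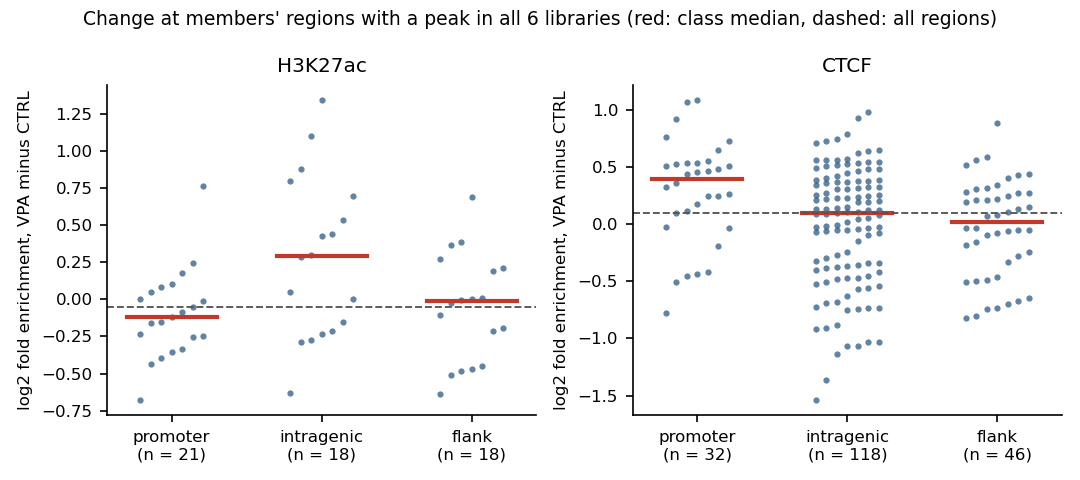
Log2 difference of the fold enrichment, VPA minus CTRL, at each member region with a peak in all 6 libraries (points), for H3K27ac (left) and CTCF (right), by position at the gene. Red bars are class medians, −0.12, 0.29 and −0.01 for H3K27ac, and the dashed line is the median over all regions (−0.05 for H3K27ac).

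The members with the most H3K27ac peaks over the 6 libraries included KCNN1 with 34. KCNN1, a small-conductance channel opened by calcium, had 3, 5 and 6 under CTRL and 5, 8 and 7 under VPA, which overlapped. KCNAB1 and KCNAB2, cytosolic subunits of the KCNA channels, KCNIP2 and KCNN4, the intermediate-conductance channel of epithelia and blood cells, had 22 each, KCNQ5 had 19 and KCNIP1 had 18. KCNAB1 had 4, 1 and 1 in the CTRL libraries and 4, 6 and 6 in the VPA libraries, all of them in the gene body, with replicate 1 equal in both treatments. KCNN4 had 1, 4 and 3 under CTRL and 3, 5 and 6 under VPA, and none of them touched its promoter. The region with the highest ranks in its window was the promoter of SMG9, at the 99.4th percentile on average.

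Among disease-related members that were named whatever their values, KCNH2, the rapid delayed rectifier of the heart, had an H3K27ac peak number of 0, 3 and 2 in CTRL and of 2, 3 and 4 in VPA. KCNQ1 had 1, 3 and 4 in CTRL and 3, 4 and 3 in VPA. KCNQ5, an M-current subunit, had 1, 4 and 3 in CTRL and 4, 3 and 4 in VPA. Each of these ranges overlapped between treatments. KCNJ2, which stabilises the resting potential, had a promoter region in every library with a fold enrichment of 3.91, 12.4 and 10.9 in CTRL and 3.69, 7.46 and 9.38 in VPA. KCNJ11, the pore of the ATP-sensitive channel, had one with 4.45, 19.4 and 19.7 in CTRL and 4.15, 16.0 and 12.8 in VPA. Neither passed limma's threshold with or without the block. KCND3, a transient outward channel, had a promoter peak in CTRL replicates 2 and 3 and in VPA replicate 2 only.

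CTCF peaks in the members' windows numbered 266, 384 and 355 in CTRL replicates 1, 2 and 3 and 250, 346 and 350 in VPA. CTRL averaged 335 ± 61.5 peaks and VPA 315 ± 56.6 (SD, n = 3), a ratio of 0.941 beside 0.936 for the whole lists, and the difference was smaller than the spread between replicates. Differences within the replicate numbers were −16, −38 and −5 peaks. At 22.3 ± 4.09 peaks per Mb in CTRL the members were near the 24.0 ± 4.35 of all genes, in contrast to H3K27ac. A CTCF peak in some library was found in the window of 90 members (96.8%, against 88.6% of all genes). KCNA5, KCNJ16 and KCNMB1 had none.

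The CTCF peak numbers of 1 member did not overlap. KCNA1 had 1 peak in each CTRL library and 2 in each VPA library (exact permutation p = 0.1, two-sided), where 0.351% of all genes were higher and 0.774% lower without overlap. At promoters and in gene bodies no member was without overlap, against 0.110% of all genes higher and 0.0994% lower at promoters and 0.178% higher and 0.544% lower in gene bodies. Counted by means, 20 members had more CTCF peaks in VPA (19.0% of all genes) and 42 had fewer (37.7%). A peak at its promoter was present in all 6 libraries, with a fold enrichment of 11.6, 12.2 and 6.30 in CTRL and 26.7, 19.6 and 12.9 in VPA (log2 difference 1.09, limma adjusted p = 1.00). The added peak lay in an exon in VPA replicates 1 and 2 and at the upstream edge of the window in replicate 3. CTRL replicates 2 and 3 had a peak at that same edge that ended short of the window, so the lack of overlap at KCNA1 rests on where the window ends, and with 50 kb either side the peak numbers overlapped. Members with the most CTCF peaks over the 6 libraries were long genes, KCNMA1 with 107 in a window of 789 kb, KCNIP1 with 84 and KCNAB1 with 83. KCNAB2 had 64, KCNIP3 58, KCNN3 57, and KCNA2 and KCNQ3 had 52 each. KCNQ3, without any H3K27ac peak, had 7, 9 and 8 CTCF peaks in CTRL and 8, 10 and 10 in VPA.

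Of 439 CTCF regions at the members, 196 were shared by all 6 libraries (39.7% of all regions), 3 only in CTRL (0.326% of all 69985 regions) and 0 only in VPA (0.186%). In an intron of KCNQ1, at chr11:2693830-2694445, the fold enrichment was 11.6, 7.31 and 4.00 in CTRL replicates 1, 2 and 3. Inside the H3K27ac region at KCNQ1OT1 described above, a further CTCF region (chr11:2698298-2698987) had a peak in CTRL replicates 2 and 3, with a fold enrichment of 5.96 and 7.35, and in no VPA library. Another CTCF region had its summit there, within chr11:2699737-2699797, and was present in some but not all libraries. Its libraries are not given here, so no treatment difference in CTCF at this start is read. At KCNJ6, a G protein-gated inward rectifier, the intronic region chr21:37873603-37874299 had 4.51, 6.28 and 3.90 in CTRL and held the motif letters shown above. The region of KCNAB3, another cytosolic subunit gene, was at chr17:7933025-7933498, at the promoters of CNTROB and TRAPPC1, with 6.48, 3.86 and 4.30.

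These CTCF counts also moved with single libraries. Regions only in CTRL numbered 14 without CTRL replicate 1 (2.72% of all regions) and 5 without CTRL replicate 2 (0.613%), and those of KCNQ1, KCNJ6 and KCNAB3 were among them both times. Regions only in VPA numbered 4 without VPA replicate 1 (0.907%), 3 without VPA replicate 2 (0.678%) and 2 without VPA replicate 3 (0.425%). With lists of equal length 1 region was only in CTRL, at KCNIP1 (0.136%). At the 196 regions present in all 6 libraries limma called no difference (smallest adjusted p 1.00 over 27794 regions). At an unadjusted p under 0.05 there were 2 member regions of 196, and 129 in all (0.464%). With the replicate block none passed either, with 9 of 196 and 571 in all (2.05%) at an unadjusted p under 0.05. The median log2 difference was 0.12 at the members and 0.10 over all regions, and 0.40 at the 32 promoter regions of members against 0.26 at all 4426 regions touching a promoter.

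Bases shared by H3K27ac and CTCF regions, each with a peak in at least 1 library, were counted at the members. The differences from all regions went opposite ways for H3K27ac and CTCF regions and were not tested. Of the 194 H3K27ac regions 106 (54.6%) shared at least 1 bp with a CTCF region, against 33.4% of all H3K27ac regions, and of the 439 CTCF regions 109 (24.8%) shared bases with an H3K27ac region, against 28.4% of all. The H3K27ac regions only in VPA of KCNC1, KCNIP2 and KCNK15 (intronic) were 3 of 6 that did so, while that of KCNU1 and the region only in CTRL of KCNMA1 did not. At KCNC1 the CTCF peak was in VPA replicate 2 only, while at KCNIP2 and KCNK15 CTCF was present in all 6 libraries. At KCNK15 its fold enrichment was 61.6, 46.8 and 47.6 in CTRL and 7.08, 71.3 and 51.6 in VPA.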

How the data were processed

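The 12 ChIP-seq peak lists were analysed, and the 6 input samples were not used here. The submitters' processing notes name Bowtie2, MACS3 3.0.0a7 and hg38, and the authors called peaks per library with a q-value cutoff of 0.05. The deposited lists give, per peak, the fold enrichment (a ratio) over local background and, from the authors' peak caller, a p-value and a q-value, both as −log10. The deposited score was not used for any value. They hold no read counts, so the study's read-based test could not be applied and depth is unknown. A more deeply sequenced library yields more peaks, which the lists cannot separate from treatment.

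Members and lists were chosen with earlier results of these data known. Genes were those of GENCODE release 44, and a window was the gene body plus 10 kb either side. Promoters were 1 kb either side of the gene's start. Peaks of an antibody were merged into regions when they shared at least 1 bp, and "only in" means 3 of 3 libraries of a treatment and 0 of 3 of the other. A peak in the windows of several members was counted once in sums. For regions with a peak in all 6 libraries, log2 of the highest fold enrichment per library, minus the library's median, was tested with limma 3.58.1 (R 4.3.3, trend, two-sided, Benjamini-Hochberg over all such regions), after the script had been tested on simulated data. Peak numbers of single genes were tested by exact permutation. Overlaps were computed with numpy 2.4.6 and pandas 2.3.3 under Python 3.11.15, and plots drawn with matplotlib 3.10.9.

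Replicate numbers come from the labels. At H3K27ac regions, deviations of same-numbered CTRL and VPA libraries from their group means correlated with r = 0.865, 0.585 and 0.591 over 18407 regions, so the numbers were taken as pairs. Replicates 2 and 3 deviated together just as much across numbers (r = 0.607 and 0.554), so the pairing rests on replicate 1. For CTCF they were 0.340, −0.0451 and 0.477, and they were not. Genes named were those with a region only in CTRL or only in VPA, those whose peak numbers did not overlap, the 8 with the most peaks of each antibody, those past limma's threshold, and a fixed set (among them KCNQ1, KCNQ3, KCNQ5, KCNH2, KCNMA1, KCNN4, KCNJ2, KCNJ11, KCNK1, KCNK2, KCND3 and KCNA1). Some genes and sequences that this rule takes in are not reported here, but counts include them. Alternatives were a −log10 q-value of at least 3, lists of equal length, summits or midpoints in place of overlap, other windows and promoters, other scaling, the replicate block and leaving out libraries. Fits that join the block with another choice, and those without replicate 1 of both treatments, were added after seeing the data.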

Additional observations from a re-analysis of the deposited data

How the results depend on the processing

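Peak lists without read totals limit these comparisons, since list length and treatment cannot be told apart. The replicate block gave 8 H3K27ac member regions past limma's threshold where the fit without it gave 0. With the block the count was 7 with no median subtraction, 2 with quantile normalization and 8 with −log10 q-values cut at 3. It was 5, 3 and 8 without replicate number 1, 2 and 3. For no median subtraction and the q-value cut no share over all regions is given, so their counts are not set against a background. Without the block the count was 0 in all leave-outs. It changed no CTCF call. With lists of equal length the ratio of VPA to CTRL peaks at the members was 1.03 for H3K27ac, 0.955 in gene bodies, 1.02 at promoters, 1.01 for CTCF and 0.996 for CTCF in gene bodies, and regions only in VPA or only in CTRL numbered 1 and 0 for H3K27ac and 1 only in CTRL for CTCF. The H3K27ac promoter ratio was 1.05 by summit and 1.25 with a 2.5 kb promoter. With 50 kb windows, 12 H3K27ac regions and 1 CTCF region were only in VPA. Leaving out libraries gave ratios of 1.18 to 1.52 for H3K27ac, 1.02 to 1.34 at promoters, 1.25 to 1.70 in gene bodies, 0.853 to 1.04 for CTCF, 0.955 to 1.15 at promoters and 0.823 to 1.03 in gene bodies. It gave 6 to 24 H3K27ac regions only in VPA and 1 to 3 only in CTRL, and 0 to 4 CTCF regions only in VPA and 3 to 15 only in CTRL (14 without CTRL replicate 1). CTCF ratios changed direction without CTRL replicate 2 (1.02) and VPA replicate 1 (1.04, 1.03 in gene bodies), and at promoters without CTRL replicate 1 (0.955) and without replicate 1 of both treatments (0.977). The causes were not tested.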

Other observations

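Other ion channel genes were counted in the same windows. Of 14 voltage-gated sodium channel genes, SCN2A, a neuronal pore subunit, had 0 H3K27ac peaks in each CTRL library and 1, 2 and 2 in VPA replicates 1, 2 and 3, and it was the only one whose peak numbers did not overlap. Of 25 calcium channel genes, 4 had more peaks in VPA without overlap and 1 had fewer, where the shares over all genes were 10.2% and 0.147%. The differences from these shares were not tested. CACNB2, an intracellular subunit, had 2, 2 and 3 in CTRL and 6, 6 and 7 in VPA. CACNA1A, a presynaptic pore subunit, had 0 in each CTRL library and 1, 3 and 2 in VPA, and CACNG6 and CACNB4 were the remaining 2. CACNA2D3, an extracellular subunit, had 7, 6 and 7 in CTRL and 4, 3 and 5 in VPA. None of the 4 HCN pacemaker genes and none of the 10 partners of potassium channels outside the symbol rule, such as ABCC8 and DPP6, was without overlap. These genes were singled out after their values had been seen, and each has the exact permutation p of 0.1 that is the smallest possible here.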
